A study of Sus scrofa with 12 samples.

Results

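The genes of iron, heme and transferrin handling were described in the liver of 12 pigs. They were HAMP, TF, TFRC, FTH1, FTL, HPX, HP, HMOX1 and ALAS1, that is 9 of the 6765 gene symbols that had a probe set of their own on the array. Their probe sets were found by gene symbol alone, without regard to any measured value. The symbols had 13 probe sets, of which 12, for 8 of the symbols, were bright enough to be tested. The exception was TFRC. A further 7 probe sets carried a member's symbol together with others and were left unnamed.

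The liver sets the iron economy of the body. Hepatocytes secrete hepcidin, the product of HAMP, which makes the iron exporter ferroportin disappear from the surface of gut cells and macrophages and so lowers plasma iron. Transferrin carries iron in plasma, ferritin stores it inside cells, haptoglobin and hemopexin capture free hemoglobin and free heme, ALAS1 starts heme synthesis, and heme oxygenase 1 opens the heme ring and frees its iron.

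The animals were adult German Landrace pigs, for which the labels name no treatment, and each gave total liver RNA for 1 Affymetrix porcine array. They were classed by stress response and by aggressiveness, each low or high, which made 4 groups of 3 animals. The groups are named here by stress response first and aggressiveness second: low-low, low-high, high-low and high-high. Each group held 1 female and 2 males. The females were low-low 1, low-high 3, high-low 1 and high-high 3, where the numbers only name animals within a group. The labels do not say how either trait was scored. Values are probe set signals, a linear intensity with no fixed unit, which the authors had scaled so that every array had nearly the same trimmed mean, 500.176 to 500.2. Signals of different probe sets cannot be compared as amounts of RNA. Whole liver also holds macrophages, vessels and blood, and fewer cells of a type cannot be told apart from less RNA per cell.

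The labelled tissue matched its markers: 11 of 12 listed hepatocyte genes were kept, and their summed signal ran from 324707 to 468535. The median correlation with the other arrays was lowest for high-high 3 (0.953) and high-low 3 (0.957), while low-high 3 had nearly the same value as the latter. Erythroid markers were represented by HBB, HBE1, ALAS2 and AHSP, 4 of 13 listed, and their summed signal ran from 1423 to 2184 in low-low, 801 to 2457 in low-high, 1187 to 2321 in high-low and 1456 to 3181 in high-high animals. Macrophage markers were represented by 8 of 12 genes, with sums of 33216 to 36506, 28475 to 34710, 30643 to 33486 and 29667 to 38386 in the same order. Every kept marker was bright enough to be tested, and the part of these cells in the results below was not tested.

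Differences were fitted with limma on log2(signal + 16) over 15999 probe sets, in a model of both traits and sex, and p-values were adjusted by the method of Benjamini and Hochberg over all of them. For stress response, 0% of the probe sets passed an adjusted p of 0.05, and at an unadjusted p under 0.05 the shares were 5.03% higher and 3.13% lower in animals with a high stress response. For aggressiveness the shares were 0%, 1.84% and 1.38%, and for the interaction of both traits 0%, 1.59% and 2.28%. For sex they were 0.0688%, 2.2% higher in males and 3.01% lower in males. The counts at unadjusted p were 1305, 515, 619 and 834 probe sets, and no other test tool was run. Against this background, none of the 12 member probe sets passed the adjusted threshold in any of these comparisons, and none had an unadjusted p under 0.05. The smallest was 0.0858, for the interaction at ALAS1 probe set 3. What the data give for these genes is therefore their level in each animal and the limits within which a group difference can lie.

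HAMP, the hormone gene, varied between animals far more than it varied between groups. The low-low animals had signals of 4161, 1781 and 1446. The low-high animals had 2426, 329 and 4314. The high-low animals had 275, 942 and 2081, and the high-high animals 762, 3036 and 5255. Both levels of each trait held an animal near the bottom and one near the top of this range, every group overlapped with each of its neighbours in the order of means, and the lowest and highest groups overlapped too. The group means ± SD (n = 3 each) were 1099 ± 913 in high-low, 2356 ± 1994 in low-high, 2463 ± 1480 in low-low and 3017 ± 2247 in high-high animals. The highest animal was 19.1-fold above the lowest, and the SD of the log2 values over the 12 animals, 1.38, was at the 99.8th percentile of the tested probe sets, whose median SD was 0.32.

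**Figure D1:**
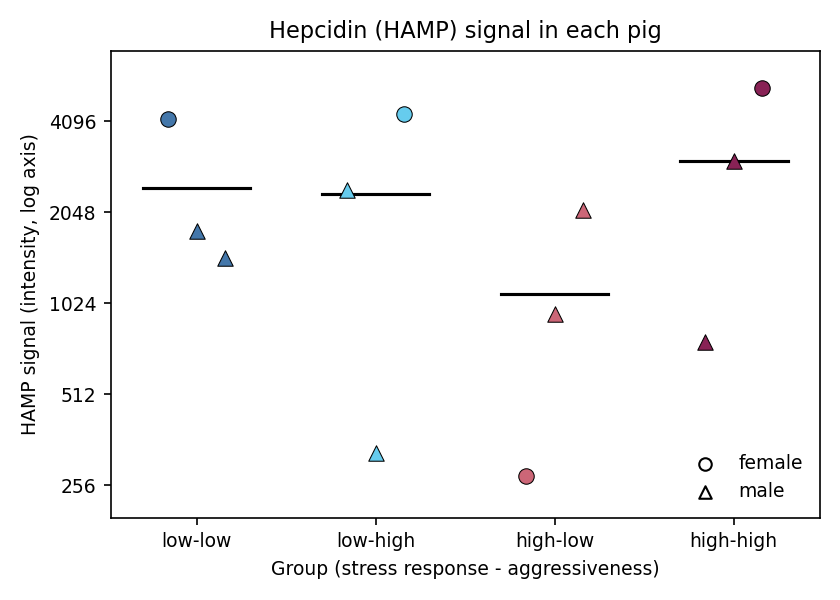
Signal of the hepcidin gene HAMP in each of the 12 pigs (vertical axis, intensity on a log2-spaced axis) by group of stress response and aggressiveness (horizontal axis); circles are females, triangles males and bars arithmetic group means. The 3 highest values, 4161 to 5255, are females of 3 groups, and the lowest, 275, is the female of the high-low group.

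HAMP was lower with a high stress response by a fitted log2 difference of −0.41 (SE 0.73, adjusted p = 0.924), with a 95% interval from −2.02 to 1.20. In folds this allows anything from 4.05-fold lower to 2.30-fold higher. For aggressiveness the difference was 0.47 (95% interval −1.14 to 2.08). The interaction, that is the difference between the stress effects at high and at low aggressiveness, was 2.00 with an interval from −1.11 to 5.11. The sign of both main differences rested on single animals. Without high-low 1, the animal with the lowest signal, the stress difference was 0.32, the aggressiveness difference −0.25 and the interaction 0.64. Without low-high 2, the other animal under 400, they were −0.97, 1.04 and 0.99.

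By sex, 3 of the 4 females had the highest HAMP values of all 12 animals and the remaining female the lowest. Females ranged from 275 to 5255 with a median of 4238, and males from 329 to 3036 with a median of 1613. The fitted difference of males against females was −0.77 on the log2 scale (95% interval −2.48 to 0.93, adjusted p = 0.951). In the 8 males alone, the stress difference was 0.28 and the aggressiveness difference −0.35, both of the opposite sign to those in all animals.

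None of the listed regulators of hepcidin that could be tested was related to it past the adjusted threshold. The BMP and SMAD pathway and the interleukin 6 pathway through JAK2 and STAT3 are known inputs to the HAMP promoter. Of 28 listed regulators, only 10 had a tested probe set. These 10 and CRP, an acute phase gene induced through STAT3, were set against HAMP over the 12 animals. The largest coefficient was that of NEO1, a co-receptor gene, with Pearson r = −0.63 (permutation p = 0.0292, adjusted p = 0.321 over 11 relations) and Spearman rho = −0.47 (permutation p = 0.128). Without low-high 2 and high-low 1, the 2 animals farthest from the HAMP median, that r was −0.21, so its size depended on those animals. In the residuals after stress response, aggressiveness and sex were fitted, r was −0.78 over the 12 animals. For STAT3 r was 0.15 (rho −0.01), for SMAD1 0.52 (rho 0.50) and for CRP 0.04 (rho 0.15), with adjusted permutation p of 0.989, 0.422 and 0.989.

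CRP is set beside HAMP here because both are described as acute phase genes of the liver. CRP ranged from 4623 to 17292 in the 6 animals with a low stress response, with a median of 5756, and from 15867 to 32535 in those with a high one, with a median of 21527. The animals of the 2 levels overlapped only through low-low 3. The fitted CRP difference was 1.54 on the log2 scale, against −0.41 for HAMP, and neither passed the adjusted threshold. Of 16 tested acute phase genes, CRP and LBP were the 2 with a higher signal at an unadjusted p under 0.05, and 0 were lower, beside 307 and 192 of 5811 genes.

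Transferrin was represented by 2 neighbouring genes that share the symbol TF. One is transferrin proper. The other has the RefSeq synonym PICA, for an inhibitor of carbonic anhydrase that belongs to the transferrin family, and is written TF (PICA) below. No annotated gene lies between them in RefSeq's Sscrofa11.1 assembly.

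Transferrin itself kept within a narrow band. TF signals were 41978, 33152 and 35733 in low-low animals, 42228, 36639 and 55006 in low-high animals, 36130, 41815 and 46499 in high-low animals, and 41301, 44663 and 44496 in high-high animals. The order of group means was low-low, high-low, high-high and low-high, and all neighbours overlapped, as did the extremes. The fitted difference was 0.07 for stress response (95% interval −0.21 to 0.36) and 0.17 for aggressiveness (−0.12 to 0.45). A change in signal of more than 1.36-fold lay outside both intervals.

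TF (PICA) signals were 26324, 19535 and 18574 in low-low, 24507, 20684 and 26355 in low-high, 20627, 20646 and 15609 in high-low, and 21199, 23864 and 20846 in high-high animals. Its 3 high-low animals all lay below the 3 low-high animals, with the nearest at 20646 and 20684, whereas neighbouring groups overlapped. Its fitted difference was −0.14 for stress response (95% interval −0.41 to 0.13, adjusted p = 0.808) and 0.19 for aggressiveness (−0.08 to 0.46). TF and TF (PICA) were only loosely related over the 12 animals (r = 0.37, permutation p = 0.235, adjusted p = 0.423 over 36 pairs; rho = 0.50, permutation p = 0.104), and r was 0.03 without low-low 2 and low-high 3.

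TFRC, the receptor that takes up iron-loaded transferrin, was near the floor of the array in all animals. Its signals were 3.46, 6.12 and 10.2 in low-low, 30.5, 3.01 and 24.7 in low-high, 4.30, 6.31 and 5.40 in high-low, and 7.66, 4.11 and 5.65 in high-high animals. All were under 40.58, the lowest mean signal among the tested probe sets. In a fit without the filter on low values the TFRC difference was −0.34 for stress response (95% interval −0.83 to 0.15, adjusted p = 0.804) and 0.29 for aggressiveness (−0.20 to 0.78). Differences this near the floor cannot be read as expression.

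The ferritin subunits differed little. FTH1 encodes the heavy subunit, which oxidises iron for storage. Its signals were 44283, 38951 and 41844 in low-low, 46042, 43474 and 50888 in low-high, 47345, 42948 and 46546 in high-low, and 42663, 47477 and 43272 in high-high animals. It had the narrowest spread of the members, with an SD of 0.10 on the log2 scale, at the 1.00th percentile of the tested probe sets. All of its groups overlapped. Its fitted differences were 0.03 for stress response (95% interval −0.20 to 0.25) and 0.06 for aggressiveness (−0.16 to 0.29).

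FTL encodes the light subunit, which favours formation of the iron core, and its 2 probe sets gave different pictures. FTL probe set 1 had signals of 46587, 36329 and 36926 in low-low, 45692, 40113 and 54278 in low-high, 35281, 44646 and 48202 in high-low, and 47817, 48051 and 46909 in high-high animals. The high-high animals lay together and above all low-low animals. FTL probe set 2 had 4274, 4368 and 4153 in low-low, 4212, 3770 and 2563 in low-high, 4084, 3470 and 3779 in high-low, and 5807, 3983 and 3800 in high-high animals. On this probe set the low-low group lay near the top rather than at the bottom. Over the 12 animals the probe sets had r = −0.33 and rho = −0.31, given as a description.

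For aggressiveness, the difference was 0.20 at FTL probe set 1 (95% interval −0.08 to 0.48) and −0.04 at probe set 2 (−0.40 to 0.32). For the interaction it was −0.05 (−0.65 to 0.54) and 0.55 (−0.12 to 1.22, unadjusted p = 0.0995, adjusted p = 0.999). Of the 12 tested member probe sets, 2 had no overlap between the animals of their lowest and their highest group, TF (PICA) and FTL probe set 1. Among all tested probe sets the share with no such overlap was 26.2%.

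The scavengers of free hemoglobin and heme, HP and HPX, moved closely together (r = 0.93). TF moved about as closely with them (r = 0.91 with HP and 0.96 with HPX). These genes also followed the bright end of the arrays, as given below. HP encodes haptoglobin, and its signals were 51349, 36386 and 39937 in low-low, 52325, 39329 and 60383 in low-high, 39447, 49611 and 48587 in high-low, and 44475, 45752 and 47902 in high-high animals. HPX encodes hemopexin, with 41203, 31105 and 34466 in low-low, 39880, 33666 and 52247 in low-high, 34080, 36573 and 39726 in high-low, and 37600, 39705 and 41023 in high-high animals. For both genes low-high 3 was highest and low-low 2 lowest, and the order of the group means was low-low, high-low, high-high and low-high, with overlap throughout. The stress difference was 0.00 for HP (95% interval −0.30 to 0.30) and −0.01 for HPX (−0.27 to 0.26). The aggressiveness difference was 0.13 for HP (−0.18 to 0.43) and 0.16 for HPX (−0.11 to 0.43). For HP, which is also an acute phase gene, the upper limit of the interval of its signal for a high stress response was 1.23-fold.

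**Figure D2:**
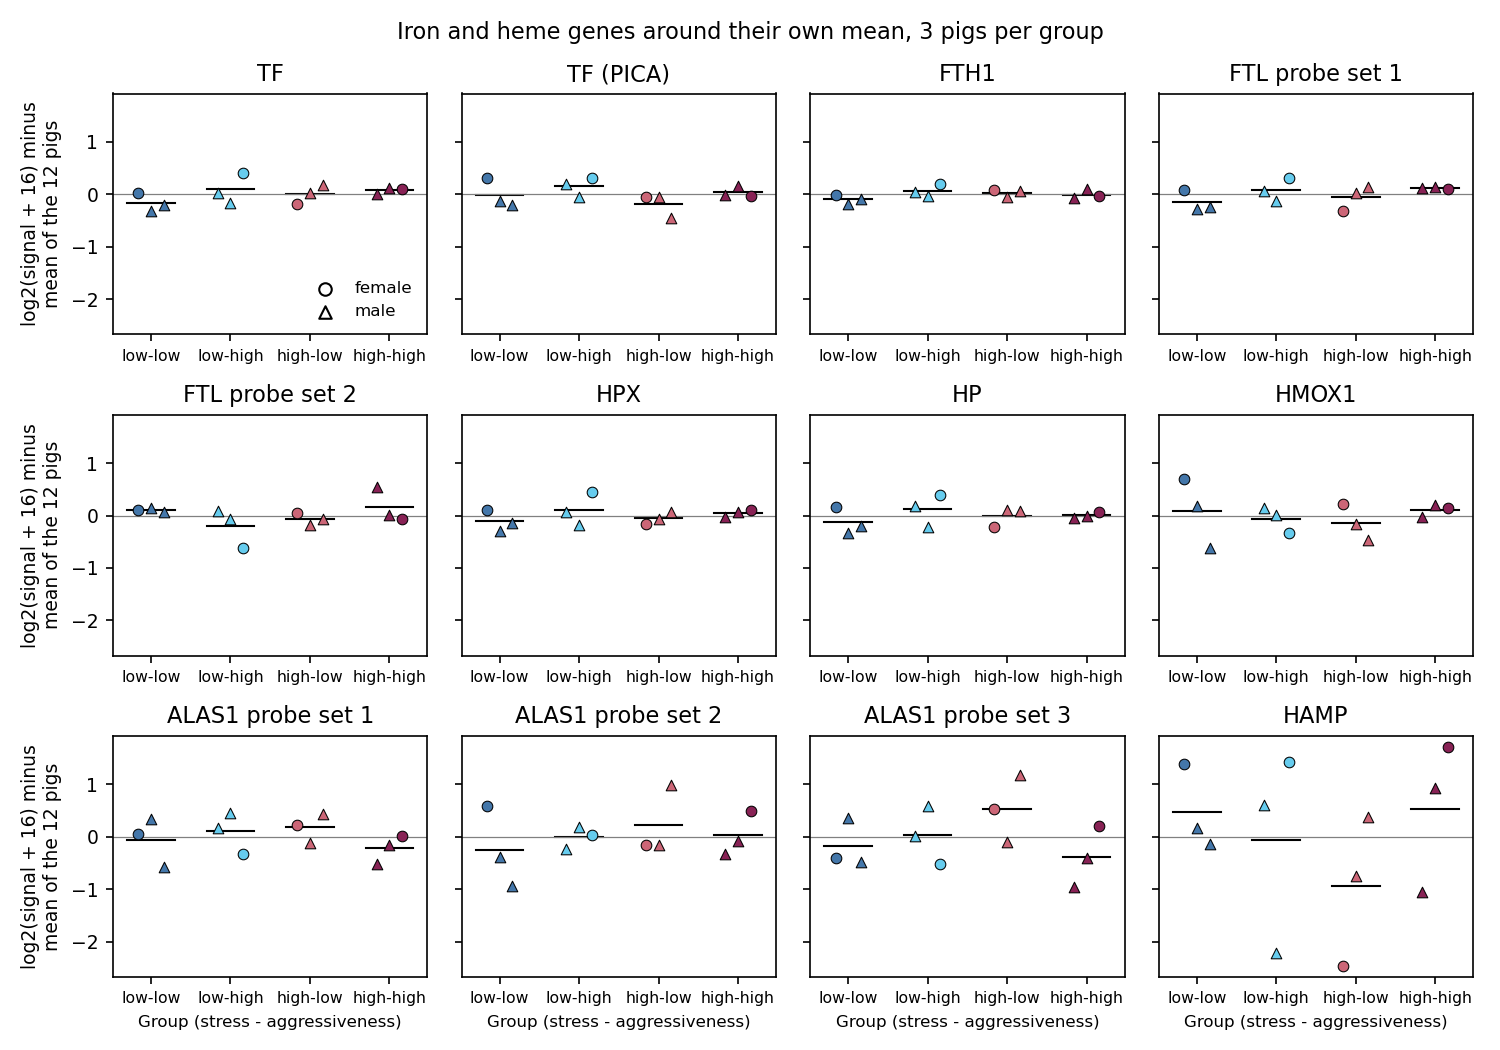
Log2(signal + 16) of each tested member probe set minus its own mean over the 12 pigs (vertical axis, same scale in all panels) by group (horizontal axis); circles are females, triangles males and bars group means. HAMP spreads over several log2 units, while TF, FTH1, HPX, HP and FTL probe set 1 stay within a narrow band.

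Heme synthesis and breakdown gave intermediate spreads. HMOX1, the inducible heme oxygenase gene, had signals of 7580, 5259 and 3031 in low-low, 5108, 4665 and 3662 in low-high, 5421, 4125 and 3361 in high-low, and 4564, 5357 and 5138 in high-high animals. The low-low group alone held both the highest and the lowest animal. The HMOX1 difference was −0.03 for stress response (95% interval −0.48 to 0.43), 0.04 for aggressiveness (−0.41 to 0.50) and 0.40 for the interaction (−0.52 to 1.32).

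ALAS1, the rate-limiting enzyme of heme synthesis in liver, had 3 tested probe sets. RefSeq's Sscrofa11.1 annotation lists this pig locus as a transcribed pseudogene. ALAS1 probe set 1 had 10534, 12935 and 6809 in low-low, 11490, 13968 and 8078 in low-high, 11907, 9349 and 13803 in high-low, and 7074, 9080 and 10300 in high-high animals. Probe set 3 had 414, 714 and 392 in low-low, 561, 838 and 383 in low-high, 806, 515 and 1269 in high-low, and 277, 412 and 638 in high-high animals. Both put the high-high group lowest and the high-low group highest, with overlap between these groups. Probe set 2 ranged from 433 to 1692 over the 12 animals and put low-low lowest, but like the others it put high-low highest. The highest animal at probe sets 2 and 3 was high-low 3. Probe sets 1 and 3 had r = 0.88 over the 12 animals, while probe set 2 had 0.55 and 0.51 with them.

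The interaction was −0.57 at ALAS1 probe set 1 (95% interval −1.49 to 0.36), −0.44 at probe set 2 (−1.68 to 0.80) and −1.13 at probe set 3 (−2.45 to 0.19, unadjusted p = 0.0858, adjusted p = 0.999). Within animals with a high stress response, the aggressiveness difference at probe set 3 was −0.92 (unadjusted p = 0.0520). The stress differences of the 3 probe sets were −0.04, 0.25 and 0.15, and the aggressiveness differences −0.12, 0.02 and −0.36, and all intervals held 0.

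**Figure D3:**
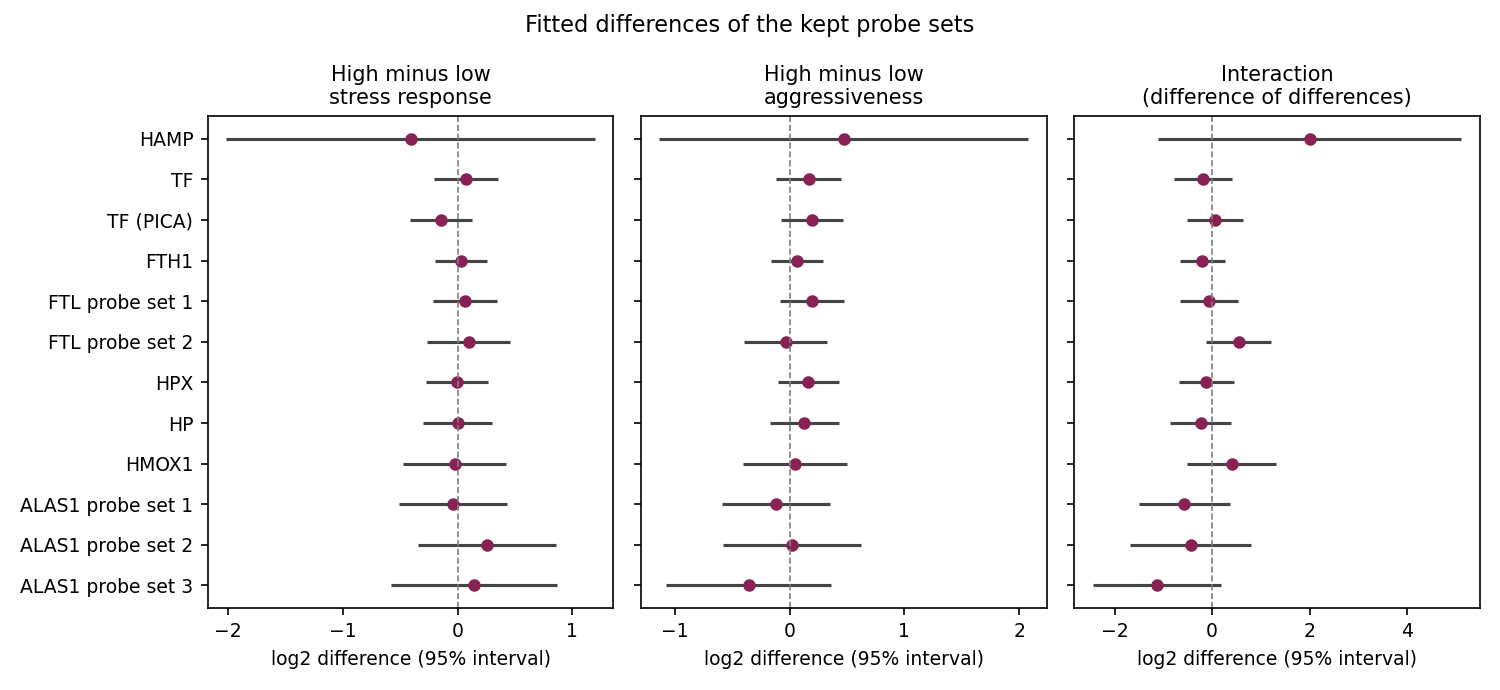
Fitted log2 differences (points) with 95% intervals (lines) of the 12 tested member probe sets for stress response, aggressiveness and their interaction; the dashed line is 0. All intervals hold 0; those of HAMP are the widest, and those of FTH1 the narrowest for stress response and aggressiveness.

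A median over the member genes describes them as a group beside all genes. With TF (PICA) counted apart and each gene taken by its brightest probe set, 9 member genes were tested. Their median stress difference was −0.01 on the log2 scale, with 3 above 0 and 6 below. Over 5811 genes the median was 0.02, with 3209 above 0. For aggressiveness the members' median was 0.16, with 8 of 9 above 0. Over all genes it was 0.00, with 2905 of 5811 above 0. TF, FTH1, FTL, HPX and HP were correlated with each other, as given below, so these are not 9 separate observations. Listed hepatocyte markers had 10 of 11 above 0 with a median of 0.12, and acute phase genes 12 of 16 with a median of 0.10. The EF1A control ratio given below also separated the levels of aggressiveness. For the interaction the members' median was −0.12, with 3 above 0 and 6 below. Over all genes it was −0.01, with 2791 of 5811 above 0.

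The abundant members followed the bright end of the arrays. TF, FTH1, FTL probe set 1, HPX and HP all lay at the bright end, above the 99.7th percentile of tested probe sets by mean signal. Whether signals this bright still rise in step with the amount of RNA was not tested. Their narrow spreads and intervals therefore describe the signal only. The bright end of each array was summarised as the mean log2 signal of its 100 brightest probe sets that were no members, a measure added after the data were seen. It ran from 14.96 in low-low 2 to 15.41 in low-high 3, and it was 15.21 ± 0.12 with high and 15.12 ± 0.12 with low aggressiveness (SD, n = 6 each; exact permutation test, two-sided p = 0.249).

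HPX followed this level with r = 0.96 over the 12 animals (permutation p = 1e-05, the smallest that 100000 permutations can give; adjusted p = 9e-05 over 9 relations; rho = 0.92, permutation p = 6e-05). Pearson's r was 0.94 for HP, 0.94 for TF, 0.88 for FTL probe set 1 and 0.80 for FTH1, with adjusted permutation p of 0.00012, 0.00012, 0.000315 and 0.00437, and rho of 0.90, 0.83, 0.78 and 0.65. Without low-low 2 and low-high 3, r was 0.91 for HPX, 0.86 for HP, 0.84 for TF and 0.80 for FTL, but 0.48 for FTH1, whose relation rested on those animals. HAMP had 0.59 (rho 0.64), TF (PICA) 0.54 (rho 0.69), HMOX1 0.01 (rho 0.00) and ALAS1 −0.23 (rho −0.24), with adjusted permutation p for r of 0.066, 0.0913, 0.974 and 0.534. By rho, HAMP and TF (PICA) passed (adjusted permutation p = 0.0367 and 0.0285), but r was 0.35 for TF (PICA) without low-low 2 and low-high 3, and 0.70 for HAMP.

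**Figure D4:**
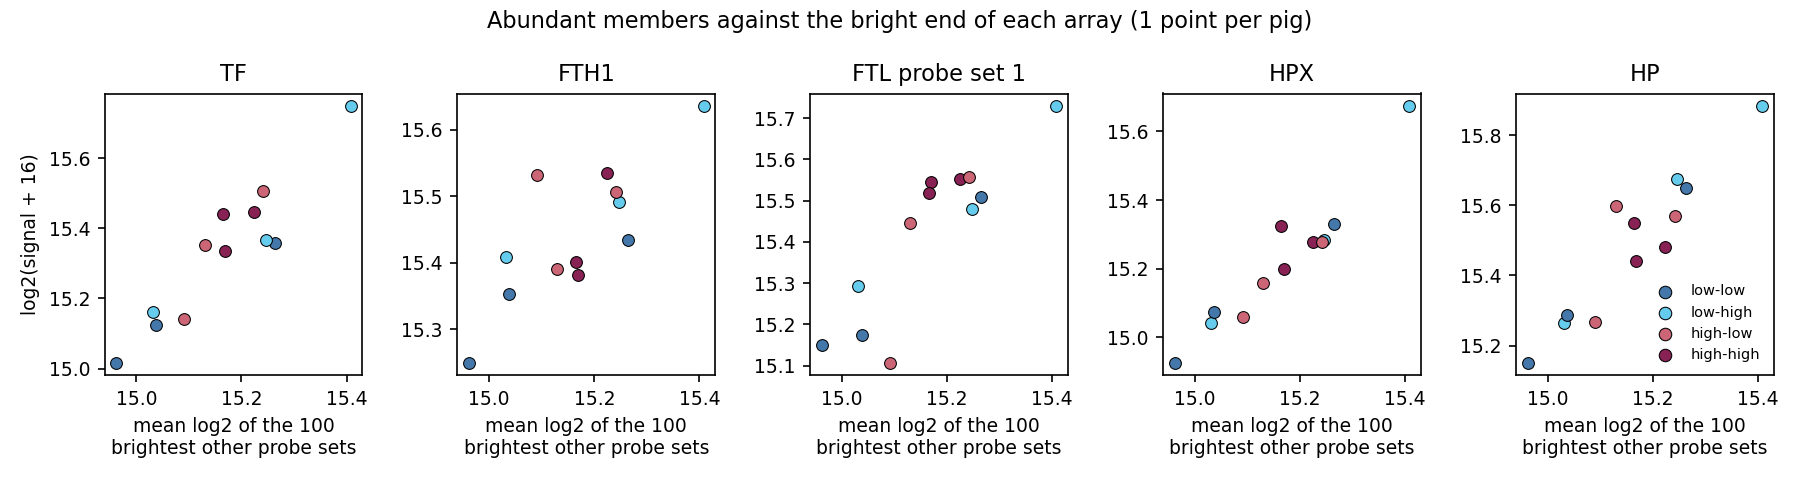
Log2(signal + 16) of 5 abundant members (vertical axes) against the mean log2 signal of the 100 brightest other probe sets of the same array (horizontal axes), 1 point per pig, coloured by group. The points rise together in all panels, and low-low 2 and low-high 3 mark the ends.

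The abundant members were also tied to each other. Of 36 pairs of member genes, 8 had a Pearson r past an adjusted p of 0.05, all among these 5 genes, and 6 pairs passed by Spearman's rho, with 5 passing both. The pair that passed by rho alone was HAMP with HPX (rho = 0.82, adjusted permutation p = 0.0148; r = 0.66, adjusted permutation p = 0.0704; r = 0.60 without low-high 2 and high-low 1). The pairs among the 5 genes had r from 0.55 to 0.96, and from 0.42 to 0.99 in the residuals after stress response, aggressiveness and sex were fitted. TF and HPX had r = 0.96 (adjusted permutation p = 0.00036; rho = 0.84, adjusted permutation p = 0.0136), and 0.89 without low-low 2 and low-high 3. TF and FTH1 had r = 0.74, and 0.31 without those animals. After quantile normalization, which gives every array the same distribution, the same 10 pairs had r from −0.76 to 0.50. This step fixes the values at the bright end, where these genes lie, and so removes most shifts they share. Lower r and narrower spreads after it were thus largely set in advance and cannot show whether the genes move together.

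Quantile normalization also narrowed the spread of most abundant members. The SD of log2 values went from 0.20 to 0.07 for TF, from 0.19 to 0.06 for HPX, from 0.21 to 0.08 for HP and from 0.19 to 0.09 for FTL probe set 1. It stayed at 0.10 for FTH1, and that of HAMP stayed near 1.38. The aggressiveness difference became 0.04 for TF, 0.05 for HPX, −0.01 for HP, 0.07 for FTL probe set 1 and −0.07 for FTH1. With the bright level as a covariate it was 0.04, 0.05, −0.01, 0.08 and 0.01 in the same order, and HAMP's was −0.11. The HAMP interaction was then 2.96 (95% interval 0.59 to 5.34, adjusted p = 1.00), against 2.00 without the covariate.

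Of 4 measures of RNA quality, 1 differed with aggressiveness. The log2 ratio of the 3′ to the 5′ signal of the EF1A control was 0.892 ± 0.0878 with high and 0.721 ± 0.0257 with low aggressiveness (SD, n = 6 each), without overlap (exact permutation test, two-sided p = 0.00216, adjusted p = 0.0303 over 14 tests of array measures). The exact permutation p was 0.593 for the same ratio of the GAPDH control, 0.861 for actin and 0.227 for the mean of the 3 ratios. The actin log2 ratio ran from 4.49 in high-low 1 to 5.44 in high-low 2, and that of GAPDH from 0.61 to 1.03. On every array the actin control thus had a far larger 3′ than 5′ signal, a limit that all groups shared. With the mean of the 3 ratios as a covariate the aggressiveness difference was 0.005 for HAMP and 0.09 for TF. For ALAS1 probe sets 1, 2 and 3 it was then 0.12, 0.14 and −0.001, against −0.12, 0.02 and −0.36 without the covariate. With the EF1A ratio as a covariate it was −1.48 for HAMP and −0.08 for TF. It was then −0.06 for FTL probe set 1, −0.08 for HPX and −0.07 for HP. None passed the adjusted threshold. The intervals widened with the EF1A ratio, to −4.59 to 1.62 for HAMP and −0.65 to 0.50 for TF. As that ratio did not overlap between the levels of aggressiveness, this fit can hardly separate it from the trait. The part of this measure in the results was not tested further.

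The genes with patterns most like the members were named by Pearson's r of log2 values over the 12 animals, among 5810 other genes, as a description. For TF they were APOC3, RPL27A and UBB (r = 0.98 each), for HPX EF1ALPHA (0.98), C1R (0.98) and UBB (0.97), and for HP B2M (0.96), EF1ALPHA (0.96) and ZC3H10 (0.96). For FTH1 they were RPS13 (0.92), RPL23 (0.88) and RACK1 (0.87), and for FTL C3 (0.96), LOC396684 (0.94) and RPL27A (0.94). HAMP was most like SQSTM1 (0.85), ATPAF1 (0.84) and ADA2 (0.83), TF (PICA) like CES1 (0.88), NAXD (0.87) and PEX14 (0.86), HMOX1 like PPT2 (0.82), GRN (0.82) and D2HGDH (0.79), and ALAS1 like MED16 (0.85), TLN1 (0.84) and LSM3 (0.83). RPL27A was shared by the lists of TF and FTL, UBB by those of TF and HPX and EF1ALPHA by those of HPX and HP, while the lists of FTH1, HAMP, TF (PICA), HMOX1 and ALAS1 shared no gene with any other.

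Beyond the members, 91 listed genes of iron and heme handling were looked up, and 40 had a tested probe set. None passed the adjusted threshold for stress response, and by unadjusted p under 0.05 the count was 5 higher and 2 lower of 40, beside 307 and 192 of 5811 genes. The median difference of the 40 was −0.06 against 0.02 over all genes. They fell into 5 lists. Of iron uptake, export and storage, 2 of 10 genes were higher, of hepcidin control 1 of 10, of heme breakdown and transport 2 of 6 higher and 1 lower, of heme synthesis 1 of 6 lower, and of iron-sulfur clusters and mitochondrial iron 0 of 8.

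SLC39A14 encodes ZIP14, an importer of zinc and of iron that is not bound to transferrin. Its signal ran from 450 to 737 with a low stress response (median 562) and from 601 to 2187 with a high one (median 995). Only 1 high animal, high-low 2, lay within the range of the low animals. The log2 difference was 0.82 (SE 0.21, unadjusted p = 0.00261, adjusted p = 0.523), and 0.62 without high-high 3, the highest animal. A second SLC39A14 probe set gave 0.56 (unadjusted p = 0.0222).

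CD163, the macrophage receptor for hemoglobin bound to haptoglobin, ran from 954 to 1900 (median 1189) with a low and from 1624 to 2587 (median 1783) with a high stress response. It was 0.57 higher on the log2 scale (SE 0.18, unadjusted p = 0.00758, adjusted p = 0.523). A dimmer CD163 probe set had an unadjusted limma p of 0.307. The macrophage marker list, of which CD163 is 1 of 8 kept genes, had 3 genes above and 5 below 0 for stress response, with a median of −0.09, and MARCO was lower by unadjusted p under 0.05 with a difference of −0.78. With CD163 included, the list's mean log2 signal was 10.97 ± 0.07 with a high and 11.05 ± 0.10 with a low stress response (SD, n = 6 each; exact permutation test, p = 0.147, adjusted p = 0.871). The part of macrophages in the CD163 difference was not tested.

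FLVCR2, a transporter first described for heme, ran from 389 to 567 (median 458) with a low and from 498 to 876 (median 649) with a high stress response, a difference of 0.46 (unadjusted p = 0.00808). STAT3, the transcription factor that carries the interleukin 6 signal to HAMP, ran from 2698 to 4287 (median 3543) and from 3456 to 7850 (median 5174), a difference of 0.61 (unadjusted p = 0.0104). BLVRA, which reduces biliverdin to bilirubin downstream of heme oxygenase, ran from 933 to 1526 (median 1194) and from 617 to 1311 (median 815), a difference of −0.45 (unadjusted p = 0.0232). The levels of stress response overlapped for all of these genes. The adjusted p was 0.523 for FLVCR2, 0.530 for STAT3 and 0.572 for BLVRA. The remaining genes of the count were MON1A, 0.30 higher (unadjusted p = 0.0446), and FECH, which inserts iron into heme, with a difference of −0.25 (unadjusted p = 0.0420), both named after their values were seen. A dimmer MON1A probe set had a smaller difference, 0.06.

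**Figure D5:**
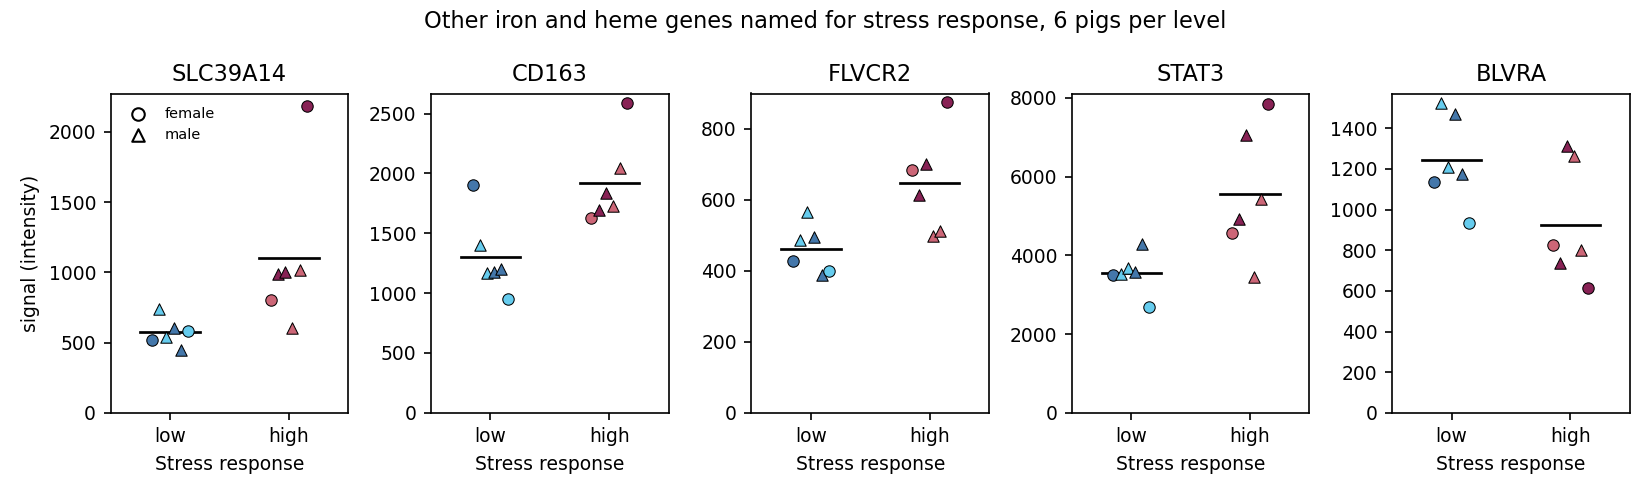
Signals (vertical axes, intensity from 0) of 5 iron and heme genes that are no members, by stress response (horizontal axes), 6 pigs per level; circles are females, triangles males, bars means and colours the 4 groups. SLC39A14, CD163, FLVCR2 and STAT3 have higher means and BLVRA a lower mean with a high stress response, with overlap in all panels.

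For aggressiveness, none of the 40 genes had an unadjusted p under 0.05 at its brightest tested probe set. Dimmer probe sets of SLC11A2 (−0.37) and FDXR (0.88) were under it, while the brightest gave 0.08 and 0.13. For the interaction, 3 genes above and 1 below 0 had an unadjusted p under 0.05, beside 73 and 106 of 5811 genes. None of these listed genes passed the adjusted threshold. They were FBXL5, an iron sensor that marks iron regulatory protein 2 for degradation (0.73, unadjusted p = 0.00737), SLC25A38, a mitochondrial glycine carrier for heme synthesis (0.73, unadjusted p = 0.0147), STAT3 (0.76, unadjusted p = 0.0496) and ID1, a target gene of BMP signalling (−0.73, unadjusted p = 0.0390). A dimmer NEO1 probe set was also under 0.05 for the interaction (−0.62), while its brightest, at −0.54, was not. For sex, 2 genes were higher and 0 lower in males at an unadjusted p under 0.05, beside 111 and 144 of 5811 genes. They were the exporter ABCG2 (0.58, unadjusted p = 0.0196) and BLVRA (0.42, unadjusted p = 0.0410), and their adjusted p were 0.911 and 0.937. A dimmer ABCG2 probe set went the other way, with a difference of −0.13.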

How the data were processed

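Liver RNA of 12 pigs was measured on Affymetrix porcine arrays, 1 animal per array. The deposited values are linear intensity signals that the authors made with GCOS 1.1.1, per the submitters' processing notes. How probes were summarised is not given in the sources used here. No column was left unused (0 unused columns). Groups came from the labels.

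Of 24123 probe sets, 124 controls and then the 33.3% with the lowest mean log2 signal were left out, which left 15999. Gene names came from the array's annotation table: 10099 probe sets had 1 symbol, 198 several and 13826 none. All 13 member probe sets matched RefSeq genes of Sscrofa11.1. A gene was represented by its brightest tested probe set.

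Models on log2(signal + 16) used limma 3.58.1 under R 4.3.3, with 8 residual degrees of freedom, or 7 with the interaction. Differences are high minus low, or males minus females, and differences of low signals are understated by the constant. The fits and permutation tests were tested on simulated data. Correlation coefficients and their 100000 permutations were computed with numpy 2.4.6, with ranks for rho from scipy 1.17.1. The 12 samples were taken as separate animals, and their number limits the precision. Detection calls were not used here.

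The members and gene lists were chosen with earlier results of these data known. Other genes were named where an unadjusted p was under 0.05, up to 5 per comparison by size of p, along with CRP, acute phase genes under 0.01, and the 3 genes most like each member by Pearson's r. Alternatives were other filters, constants, normalizations, variance models, covariates, males alone, and each animal left out.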

Additional observations from a re-analysis of the deposited data

Results flagged for a closer look

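Single animals were tested for standing apart within each level of stress response and aggressiveness (6 animals each) by Dixon's ratio, the gap to the nearest animal over the whole range, taken on log2(signal + 16). The signals printed beside the ratios are linear. Of 88 such tests on the members and the other named genes 5 exceeded the 95% critical value, and chance gives about 1 in 20.

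TF (PICA) in high-low 3 was the lowest of the animals with a high stress response (ratio 0.657), with a signal of 15609 beside 20627 in the nearest animal. FTL probe set 1 in high-low 1 was the lowest of the same animals (ratio 0.754), at 35281 beside 44646. FTL probe set 2 was lowest in low-high 3 among animals with a low stress response (ratio 0.724, 2563 beside 3770) and highest in high-high 1 among those with a high one (ratio 0.683, 5807 beside 4084). ABCG2 in high-low 3 was the highest of the animals with low aggressiveness (ratio 0.681), at 2210 beside 1258. HAMP, despite its wide range, had no animal that stood apart by this measure.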

How the results depend on the processing

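The 36 member values (12 probe sets in 3 comparisons) were recomputed under 27 alternatives, 12 of them leaving out 1 animal. Of the 963 values this gave, 0 passed the adjusted threshold (smallest adjusted p 0.689), and 92 turned sign, 66 of them from a value within 0.1 of 0. Of the other named genes, SLC39A14, CD163, FLVCR2, STAT3, BLVRA, FBXL5, SLC25A38, ID1 and ABCG2 were recomputed for the comparisons that named them. They kept their sign in all 293 values, with 0 past the threshold. Other genes named above, such as CRP, LBP, MARCO, MON1A and FECH, were not recomputed. The causes of the turned signs were not tested.

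For stress response, the turned values were −0.0051 for FTH1 and 0.014 for HMOX1 with quantile normalization, and −0.015 for FTH1 with median centring. Array weights gave 0.032 for HPX, 0.049 for HP and −0.040 for ALAS1 probe set 3. A covariate for the mean 3′ to 5′ control ratio gave 0.028, 0.035 and −0.011 for the same genes, and one for the EF1A ratio 0.046 for HMOX1 and 0.066 for ALAS1 probe set 1. The mean over the ALAS1 probe sets was 0.12. Males alone gave 0.28 for HAMP, 0.15 for HPX, 0.18 for HP and −0.19 for ALAS1 probe set 3. Without high-low 3 and high-high 3 the values were 0.066 for HMOX1, −0.013 for ALAS1 probe set 2 and −0.17 for probe set 3. For aggressiveness, the EF1A covariate gave −1.48 for HAMP, −0.076 for TF, −0.055 for FTL probe set 1, −0.082 for HPX, −0.067 for HP, 0.44 for ALAS1 probe set 1 and 0.43 for probe set 3, and the mean control ratio 0.12 for ALAS1 probe set 1. The bright level as covariate, added after the data were seen, gave −0.11 for HAMP, 0.039 for FTL probe set 2, −0.015 for HP and −0.12 for ALAS1 probe set 2. Males alone gave −0.35 for HAMP and 0.16 for FTL probe set 2. Quantile normalization gave −0.071 for FTH1 and −0.0085 for HP. HMOX1 was −0.028 with array weights and −0.021 without high-low 3 and high-high 3. For the interaction, FTL probe set 1 was 0.085 with quantile normalization, 0.019 with median centring, 0.25 as the mean of probe sets, 0.13 without high-low 3 and high-high 3 and 0.10 with the bright level. HPX was 0.018 with quantile normalization, 0.047 without those arrays and 0.029 with the bright level.

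With 1 animal left out at a time, the stress difference ranged from −0.97 to 0.32 for HAMP, −0.026 to 0.17 for FTL probe set 2, −0.054 to 0.064 for HPX, −0.055 to 0.073 for HP, −0.19 to 0.13 for HMOX1, −0.20 to 0.076 for ALAS1 probe set 1 and −0.066 to 0.35 for probe set 3. The aggressiveness difference ranged from −0.25 to 1.04 for HAMP, −0.14 to 0.086 for FTL probe set 2, −0.075 to 0.20 for HMOX1 and −0.14 to 0.26 for ALAS1 probe set 2. The interaction ranged from −0.26 to 0.068 for FTL probe set 1, −0.28 to 0.022 for HPX, −0.060 to 0.20 for TF (PICA) and −0.85 to 0.033 for ALAS1 probe set 2. The count of probe sets past the adjusted threshold was 0 in all animals for stress response and for the interaction, and ranged from 0 to 1 for each with 1 animal left out. Without high-low 3 and high-high 3 it was 2 for the interaction. For sex it was 11, or 7 with the lowest 50% left out. No paired analysis was possible because the replicate numbers only name animals. Signals near the floor, such as those of TFRC, limit what can be compared there.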
